A study of Drosophila melanogaster with 3 samples.

Results

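The genes described here are 4 histone genes of Drosophila melanogaster that lie outside the repeated histone array and encode replication-independent or replacement histones, His2Av, His3.3A, His3.3B and His4r. They were chosen by a rule that used measured values, the promoter summits and score ranks of the same peak lists, so their being bound at a promoter is a description and was given no test. They are 4 of the 115 histone genes counted here, the other 111 being array copies, and 4 of 13945 protein-coding genes. The variant and linker histone genes cid and BigH1 also lie outside the array but were not counted among the 115. Neither had a promoter summit among the reproducible peaks, and both are in a list described further on. The lists came from chromatin immunoprecipitation with sequencing (ChIP-seq) of Lola-RI, a product of the gene lola, which encodes transcription factors with a BTB domain and, in most isoforms, zinc fingers. All samples belonged to 1 group. They were wandering larvae of the third instar, taken whole and with male and female pooled, of the line lola-RI-GFP, in which Lola-RI stably carries eGFP at its C terminus, in 3 biological replicates. Per the labels the immunoprecipitation used an anti-GFP antibody, although their antibody field reads lola, and chromatin was sonicated to 200 to 800 bp. The larvae were not dissected, so a peak cannot be assigned to a tissue, and 1 tagged line was used with no second condition. No read depth is given in the peak lists.

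Most histone protein in animal cells is made during S phase from clustered genes whose mRNAs end in a stem loop rather than a poly(A) tail. Histone variants and replacement histones are made throughout the cell cycle from solitary genes with introns and polyadenylated mRNAs. H3.3 is placed into chromatin at transcribed and remodelled regions outside replication. H2Av is the only H2A variant of the fly and combines the roles that H2A.Z and H2A.X divide in mammals, in gene regulation and in the response to DNA breaks. His4r encodes the ordinary H4 protein from a gene of the replication-independent kind.

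The encoded proteins differ from the array histones to unlike degrees. Translated from the genome and the annotated coding exons, His3.3A and His3.3B gave the same protein of 136 residues, 100% identical. It matched the array H3 at 132 of 136 residues (97.1%), and the substitutions from array H3 to H3.3 were A31S, S87A, V89I and M90G, with positions counted after the initiator methionine. His4r gave a protein of 103 residues that was 100% identical to the most common array H4. His2Av gave 141 residues against 124 for the array H2A, and 79 of 122 aligned residues (64.8%) were identical. So 2 of the 4 genes encode the same variant protein from different chromosomes, and 1 encodes the protein that the array also encodes.

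All coordinates are dm6, 1-based. The stretches shown are the non-exonic sequence at 6 of the 7 summits of the irreproducible discovery rate (IDR) list in and around the genes. They show how short the sequence between neighbouring genes is, and which letters recurrent at Lola-RI summits stand there. Capitals mark matches to the motifs or 6-mers described further on. The matches given there for the promoter summits of His2Av, His3.3A and His4r do not lie within these stretches, which leave out exons. The sequences are from the RefSeq release 6 genome and read 5′ to 3′ on the strand of the gene named first. The His3.3A stretch does not hold its summit, which lies at 5055060, inside the gene.
His2Av, intron of ball with the summit at 26866739, 3R:26866656-26866775, + strand: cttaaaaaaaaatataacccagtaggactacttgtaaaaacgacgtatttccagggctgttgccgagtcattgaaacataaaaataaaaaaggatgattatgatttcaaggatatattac
His3.3A, the whole gap between CG14036 and His3.3A, 2L:5055017-5055057, + strand: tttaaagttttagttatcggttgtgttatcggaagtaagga
His3.3B, intron around the summit at 9155286, X:9155226-9155346, - strand: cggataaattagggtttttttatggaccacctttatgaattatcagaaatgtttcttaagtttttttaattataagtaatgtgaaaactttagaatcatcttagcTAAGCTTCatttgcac
His3.3B, around the summit at 9152166 past the 3′ end, X:9152106-9152226, - strand: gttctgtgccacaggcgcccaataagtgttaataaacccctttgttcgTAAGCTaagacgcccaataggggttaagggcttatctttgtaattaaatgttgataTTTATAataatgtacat
His4r, the whole gap between put and His4r with the summit at 14625722, 3R:14625704-14625754, + strand: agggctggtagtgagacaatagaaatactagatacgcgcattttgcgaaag
His4r, intron of put around the summit at 14624294, 3R:14624234-14624354, + strand: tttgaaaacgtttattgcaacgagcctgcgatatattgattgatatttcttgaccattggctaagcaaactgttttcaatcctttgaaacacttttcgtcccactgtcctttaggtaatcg

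Every member had a summit within 500 bp of a transcription start site (TSS) in the IDR list, which is the rule by which they were chosen. The same was true of 34.0% of all protein-coding genes (4743 of 13945), and nothing is read from the difference. In the pooled list all 4 were bound, against 48.1% of all genes. The replicate lists all hold 30000 peaks, so each was shortened to its 9202 highest-scoring peaks, the length of the IDR list. In the shortened lists 3 of the 4 were bound in replicate 1 (33.7% of all genes), 3 in replicate 2 (32.5%) and 4 in replicate 3 (36.2%). His4r was the gene missing in replicate 1 and His3.3A the gene missing in replicate 2. His2Av and His3.3B were bound in all 3 shortened lists, against 27.3% of all genes (3812 of 13945). Genes with more TSSs have more chances to lie near a summit: of all genes, 26.6% of those with 1 TSS were bound, as for His2Av, 47.7% of those with 2 TSSs, as for His3.3A and His4r, and 64.2% of those with 3 TSSs, as for His3.3B.

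None of the promoter peaks was among the strongest of the series. Ranks are by the authors' score, with 1 the highest, and only ranks within a list are compared since the labels and headers state no scale for the score. The leading promoter peak of His2Av had rank 4321 of 9202 in the IDR list, that of His3.3A rank 6589, that of His3.3B rank 6730 and that of His4r rank 7409. The median rank of the leading peak over the 4743 bound genes was 3845. Of these bound genes, 55.4% had a higher-ranked peak than His2Av, 79.7% than His3.3A, 80.9% than His3.3B and 86.7% than His4r.

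In the replicates, the leading promoter peak is the highest-scoring one of the gene in that list, which for His3.3B was not always the same peak. For His2Av the leading promoter peak had ranks 4619, 3719 and 4959 in replicates 1, 2 and 3 (mean 4432 ± 641, SD, n = 3). For His3.3B they were 6223, 5500 and 7473 (6399 ± 998), where replicate 1 gives the internal peak and the others the peak at the 5′ end. The 5′ end peak of His3.3B, which leads in the IDR list, followed through all replicates had ranks 9098, 5500 and 7473 (7357 ± 1802). All replicates of His2Av ranked above all replicates of His3.3B on either reckoning. For His3.3A the ranks were 7270, 9843 and 4692 (7268 ± 2576), with replicate 2 the low one. For His4r they were 10867, 6338 and 5787 (7664 ± 2788), with replicate 1 the low one. The ranks of His3.3B, His3.3A and His4r overlapped one another and their order is within the spread between replicates. His2Av did not overlap His4r, but it overlapped His3.3A through replicate 3. The highest rank number of a gene divided by its lowest was 1.33 for His2Av, 1.36 for the leading peaks of His3.3B (1.65 for its 5′ end peak), 1.88 for His4r and 2.10 for His3.3A, beside a median of 1.52 (quartiles 1.32 to 1.82) over 1397 genes with leading peaks in the same range of IDR ranks. Of the 1487 bound genes in that rank range, 76.5% were bound in 3 shortened lists, 21.5% in 2 and 2.02% in 1.

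**Figure D1:**
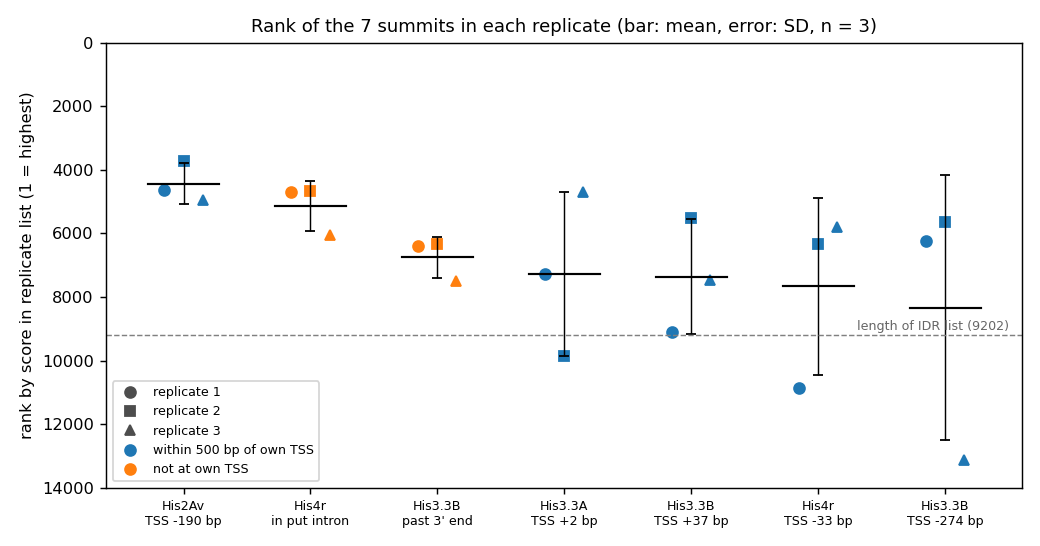
Rank by score (vertical axis, 1 at the top) of each of the 7 IDR summits in the 3 replicate lists, ordered by mean rank, with the mean and SD over 3 replicates in black and the length of the IDR list, 9202, as a dashed line. The His2Av promoter stands between 3719 and 4959, and 3 sites have 1 replicate below the dashed line.

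His2Av encodes the H2A variant and lies on 3R from 26866929 to 26869220 on the + strand (2292 bp, FBgn0001197). Its TSS is 122 bp from the nearest TSS of ball, on the opposite strand, which encodes a nucleosomal histone kinase. The peak ran from 26866590 to 26866935 with its summit at 26866739, 190 bp upstream of His2Av. That position is inside the transcribed part of ball, in its intron, 68 bp downstream of that TSS of ball, so the peak was nearer to ball than to His2Av. The summit varied by 32 bp over the replicates. In replicate 2 its nearest TSS was another one of ball, farther inside that gene, and the summit lay 87 bp upstream of it. Inside His2Av no summit reached the IDR list, but the pooled list held summits 524 and 724 bp downstream of the TSS at ranks 15076 and 19150. Of its summits inside the gene, replicate 2 placed the higher-ranked one 648 bp downstream at rank 12089. Replicate 3 placed it at 493 bp and rank 12002, and replicate 1 at 490 bp and rank 19273. In replicates 1 and 3 this summit was thus within 500 bp of the TSS, at the promoter by the rule used, and nearest to His2Av. The nearest IDR summit outside the gene extended by 2 kb was 3792 bp away, at Lerp, with rank 8293.

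His3.3A, 1 of the H3.3 genes, lies on 2L from 5055058 to 5056149 on the + strand (1092 bp, FBgn0014857), with TSSs at 5055058 and 5055134. The peak ran from 5054984 to 5055197, and its summit at 5055060 fell 2 bp inside the gene, in the 5′ UTR. Replicates 1 and 3 placed the summit at 5055062 and 5055065, and replicate 2, in which the peak ranked 9843, at 5055197. CG14036 starts 42 bp away on the opposite strand, so the same summit also lay at its promoter. No other IDR summit lay in the gene extended by 2 kb. Replicate 2 alone had a summit in the 3′ UTR, which overlaps the 3′ UTR of Nepl3, a gene of the neprilysin-like peptidase family, at rank 23468. Replicates 1 and 2 had summits near the start of Nepl3 at ranks 27102 and 18096. The nearest IDR summit beyond 2 kb, 2321 bp away at eIF3h, a translation initiation factor subunit gene, had rank 3751, above the peak of His3.3A itself.

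His3.3B, the other H3.3 gene, lies on X from 9152523 to 9156669 on the - strand (4147 bp, FBgn0004828) and had the most summits, 3 in the IDR list. Of all protein-coding genes 50.5% had at least 1 IDR summit in the gene extended by 2 kb, 27.2% at least 2 and 13.6% at least 3. The peak at the 5′ end, from 9156400 to 9156863, had its summit at 9156632, 37 bp inside the 5′ UTR, with replicate ranks 9098, 5500 and 7473 (7357 ± 1802, n = 3). The internal peak, from 9155169 to 9155457, had its summit at 9155286, in an intron and 274 bp upstream of the nearest TSS, at 9155012. The gene has another internal TSS, at 9155613, and the summit lay downstream of that one. The internal peak had IDR rank 7213 and replicate ranks 6223, 5649 and 13143 (8338 ± 4171), so replicate 3 stood well apart from the others. The peak farthest downstream, from 9152038 to 9152262, had its summit at 9152166, in the intergenic stretch 357 bp past the 3′ end of His3.3B. Beyond it lies the 3′ end of Bap111, a Brahma complex subunit gene on the opposite strand. From the 5′-most TSS of His3.3B the summit was 4503 bp away and that end 4693 bp. The summit was thus nearer to the 3′ end of Bap111 than to that of His3.3B. This peak had IDR rank 6527 and replicate ranks 6405, 6340 and 7498 (6748 ± 651), with the summit within 26 bp over the replicates. The ranks of these 3 peaks overlapped, and no order among them holds beyond the spread. Unlike the other members, His3.3B has no gene starting close by on the opposite strand; the nearest, Dlip1, starts 1953 bp away. Upstream, replicate 2 had a summit at rank 20938 near the start of Ost48, an oligosaccharyltransferase subunit gene, and replicate 3 at rank 16412 near that of Dlip1. The nearest IDR summit beyond 2 kb was 3351 bp away, at NdufA3, with rank 8065.

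His4r lies on 3R from 14625755 to 14626614 on the + strand (860 bp, FBgn0013981), 52 bp from the TSS of put on the opposite strand, a type II receptor gene of the TGF-β family. The promoter peak ran from 14625610 to 14625861 with its summit at 14625722, 33 bp upstream of His4r and 19 bp upstream of put. In the replicates the summit lay 94 bp upstream, 73 bp downstream and 48 bp upstream of the 5′-most TSS of His4r, a range of 167 bp, so it fell in put, in His4r and between them. The peaks of replicates 1 and 2, from 14625659 to 14625777 and from 14625780 to 14625897, did not overlap. The mean rank of the promoter peak is thus taken over peaks that do not all overlap. The highest-scoring IDR peak of the locus was not at this promoter: from 14624179 to 14624396, with its summit at 14624294, it lay in the intron of put, 1409 bp from the TSS of put and 1461 bp from that of His4r. It had IDR rank 5032 and replicate ranks 4699, 4667 and 6039 (5135 ± 783, n = 3). In replicates 1 and 2 it ranked above the promoter peak, and in replicate 3 the promoter peak, at 5787, ranked above it, so their ranks overlapped. Taking the leading peak of the gene extended by 2 kb in place of the promoter peak gives His4r a mean rank of 5051 instead of 7664. The next IDR summit was 16376 bp away, near CG14853, at rank 2284.

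**Figure D2:**
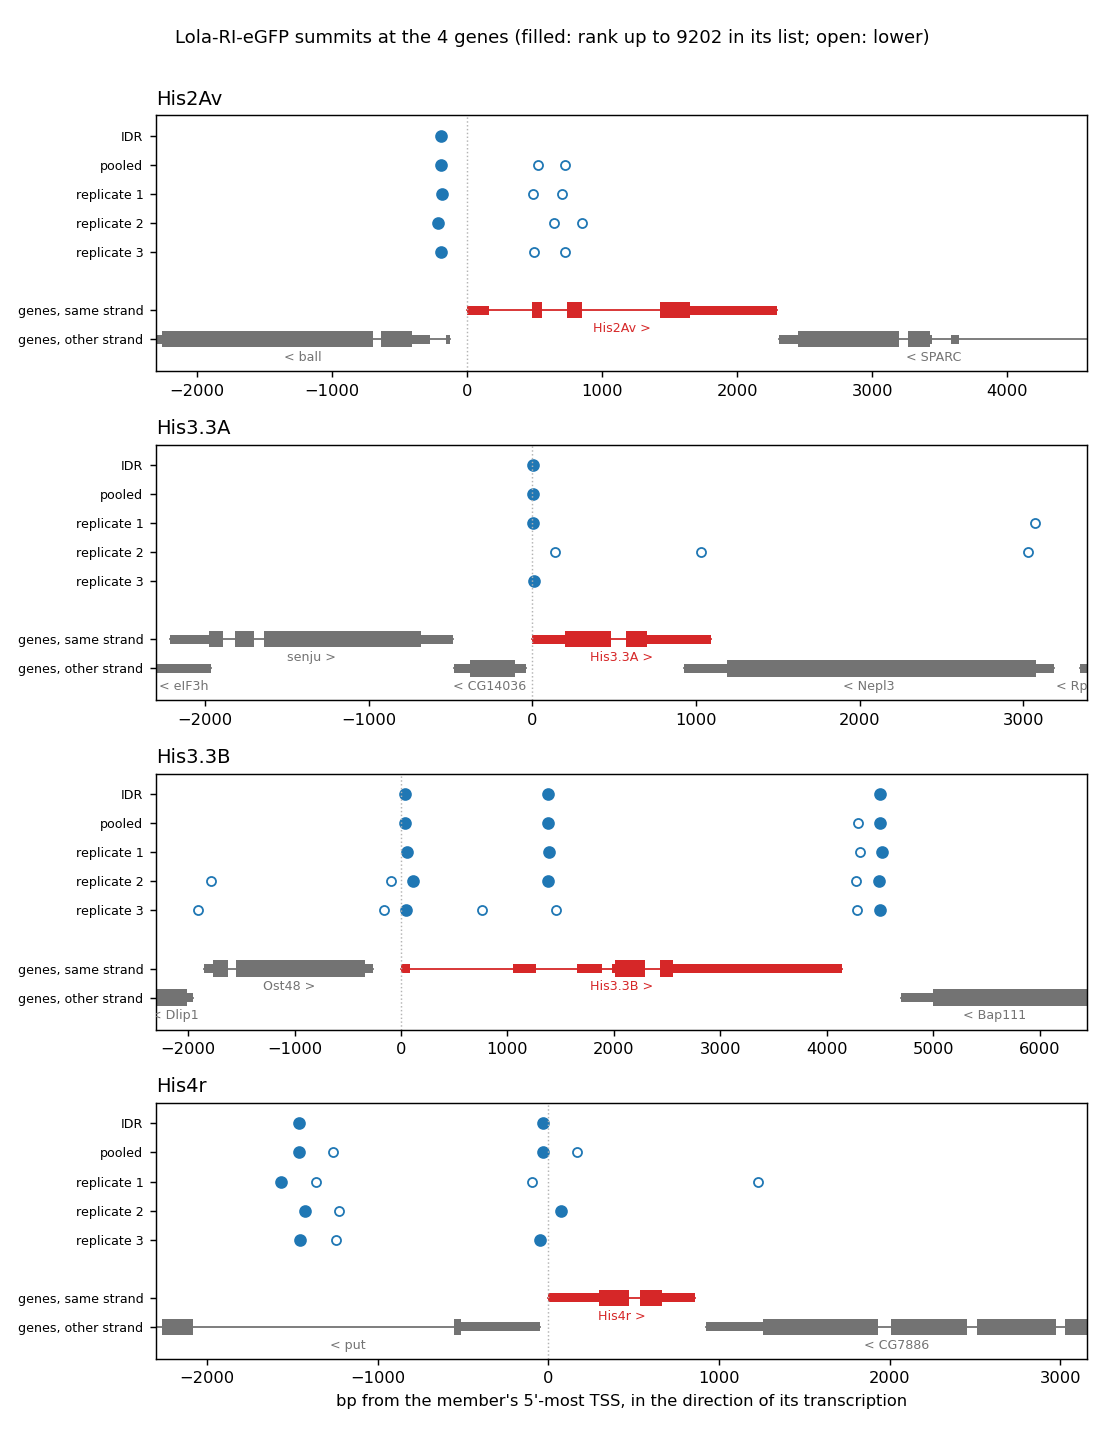
Summits in each list at the 4 genes, against the distance in bp from the 5′-most TSS in the direction of transcription; filled circles rank within the first 9202 of their list, open circles lower. Gene models below (red, the member; grey, neighbours; tall boxes, coding exons) show ball, CG14036 and put starting next to His2Av, His3.3A and His4r, while His3.3B has 3 separate IDR summits.

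Over the 7 summits, those of the replicates spread over 26 to 167 bp. Among 2855 IDR peaks in the same rank range with a match within 200 bp in every replicate, the median spread was 61 bp (quartiles 31 to 112). Of the 7, 5 were at a promoter and 4 were present in all 3 shortened lists: that of His2Av, that in the intron of put, and those at the 5′ end and past the 3′ end of His3.3B.

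The shared promoters of 3 of the 4 members are common in this data set. Of the 4743 bound genes, 44.0% had their leading summit within 500 bp of a TSS of a protein-coding gene on the opposite strand, and 49.9% within that distance of a TSS of any other gene. Another gene's TSS was nearer to the summit for 23.5% of them, as for His2Av (ball) and His4r (put). When each summit was given only to the gene with the nearest TSS, 2 of the members, His3.3A and His3.3B, stayed bound. Bound genes had their leading summit upstream of the TSS in 81.8% of cases, at a median of -104 bp (quartiles -190 and -25). The summits of His2Av (-190 bp) and His4r (-33 bp) were upstream, and those of His3.3A (+2 bp) and His3.3B (+37 bp) just downstream.

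**Figure D3:**
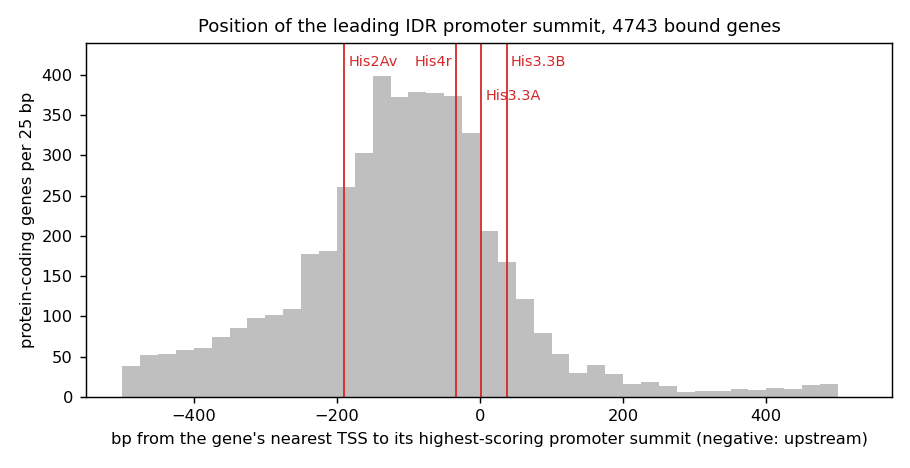
Histogram of the distance from the nearest TSS of a gene to its highest-scoring promoter summit for the 4743 bound genes, 25 bp per bar, negative values upstream. Red lines mark the members at -190, -33, +2 and +37 bp, beside a median of -104 bp over all bound genes.

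No list had a summit at the replication-coupled histone genes. The array spans 124729 bp of 2L, from 21416953 to 21541681, with 23 copies of His1, 20 of His2A, 23 of His2B, 23 of His3 and 22 of His4 annotated. Of these 111 genes 0 were bound in the IDR list, the pooled list and each full replicate list, and none of the lists had a summit inside the array. A count of 0 of 111 allows a share of up to 2.70%, counting error only, and the copies are not independent of one another. The nearest IDR summits were 19535 bp to the left, at rank 113, and 81972 bp to the right, at rank 1196. In the replicate lists the nearest were 15444 to 15695 bp away on the left, with ranks from 23330 to 27987, and 18972 to 31823 bp away on the right, with ranks from 11026 to 21735. The labels and headers do not say how reads from repeated sequence were handled, so an unbound array and an array in which reads were not placed cannot be told apart.

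Genes that act on histones or their mRNA, and other variant, linker and sperm chromatin genes, were described from 5 lists of 43 genes. The last of these lists, with 7 genes and 0 bound, is part of the total. Of the 43, 18 were bound in the IDR list (41.9%), beside 34.0% of all genes. In the shortened lists 44.2%, 37.2% and 46.5% were bound in replicates 1, 2 and 3. Of the H3.3 deposition genes 3 of 6 were bound: XNP, the fly ATRX remodeller, at IDR rank 5555, yem, the partner of Hira, at rank 5989, and Daxx, an H3.3 chaperone, at rank 6466. Hira itself, asf1 and Dek were not bound in the IDR list. In the pooled list 5 of the 6 were bound, beside 48.1% of all genes. The summit at yem was nearer to Ctl2, and that at Daxx nearer to Sec61alpha. Of the H2Av exchange genes, subunits of the Domino and Tip60 complexes, 9 of 15 were bound, with pont, an AAA+ ATPase gene, at rank 2492, Eaf6 at rank 3665 and Ing3 at rank 3974. Eaf6 had replicate ranks 3985, 17487 and 3100. The summits at Tip60, YL-1 and MrgBP were nearer to tyf, Tmem214 and Ggamma1, in that order. In all 3 shortened lists 4 of the 15 were bound, beside 27.3% of all genes. The gene of the catalytic subunit Domino, dom, was not bound in the IDR list. Among the replicate lists it had a promoter summit only in replicate 1, at rank 6755. Of the general and replication-coupled chaperones 4 of 8 were bound, led by the gene of the largest subunit of chromatin assembly factor (FBgn0030054) at rank 2793, Caf1-55, which encodes its small WD repeat subunit, at rank 3140, and Nap1, an H2A-H2B chaperone gene, at rank 5109.

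Of the genes for histone mRNA processing and the histone locus body 2 of 7 were bound. Lsm11, a subunit of the U7 particle that cuts histone mRNA, had the peak at rank 75, the strongest in these lists, but that summit was 68 bp upstream of Marc and 208 bp upstream of Lsm11. Slbp, the stem loop binding protein of histone mRNA, had a peak at rank 3906, nearer to Rpn2. Of 7 other variant, linker and sperm chromatin genes 0 were bound. These lists were put together with earlier results of the data known, and no test was made on them.

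**Figure D4:**
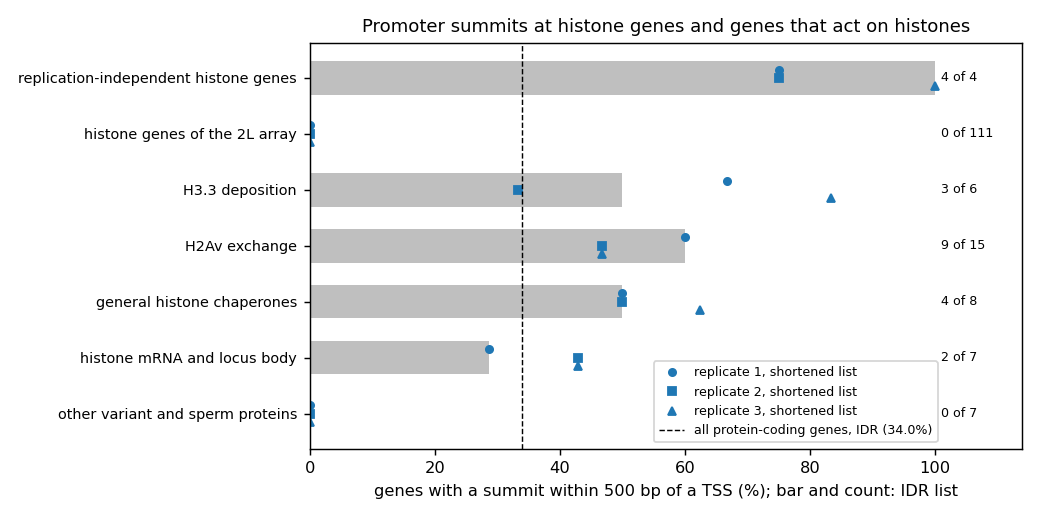
Percentage of genes with a summit within 500 bp of a TSS, as bars with counts for the IDR list and as points for the 3 replicate lists shortened to 9202 peaks; the dashed line is the IDR share of all protein-coding genes, 34.0%. The members were chosen on this measure (4 of 4), the array and the other variant and sperm genes are at 0, and the remaining lists lie between 28.6% and 60.0%.

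Exact matches to 12 motifs and to the 10 6-mers most frequent at summits relative to flanks were counted on both strands within 50 bp of each summit. The 6-mers were chosen on the IDR windows themselves, and overlapping 6-mers share letters. The leading 6-mers were AAGCTT (11.5% of IDR windows, 2.47% of windows 500 bp to either side), AAGCTC (14.6% and 3.36%) and AAAGCT (23.3% and 5.61%). At least 1 of these 3 was present in 69.6% of the 500 highest-scoring windows, 27.4% of all IDR windows, 8.75% of flanking windows and 18.8% of the 3089 IDR windows in the rank range of the members' peaks. It was present at 0 of the 7 members' summits within 50 bp and at 2 of 7 within 100 bp, where 39.5% of IDR windows had one. Those 2 were the promoter of His3.3A and the internal peak of His3.3B, where AAGCTT is part of the capital run of the intron stretch above.

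Other matches were few. The 6-mer AGCTTA (8.63% of IDR windows, 4.16% of flanks) was at the internal and the 3′ peak of His3.3B, where the stretches above show its reverse complement in capitals. The 6-mer CGATAG (4.4% and 2.25%) was at the promoters of His2Av and His4r, and AGAGCT (7.26% and 3.42%) at His2Av. TATAAA (16.9% and 12.3%) was at the 3′ peak of His3.3B. GAGAG (16.5% and 13.2%) was at the 5′ end of His3.3B, CAGCTG (5.61% and 4.61%) at His3.3A and TCAGTT (7.39% and 6.05%) at His4r. TATCGATA, the DNA replication-related element, and GGTCACAC, the core of Ohler motif 1, were 4.83 and 5.96 times as frequent at summits as in flanks. Each was in 1.52% of IDR windows and at 0 of the 7 sites within 50 bp. Within 100 bp, GGTCACAC was at the promoter of His3.3A and TATCGATA at 0 of the 7. The summit in the intron of put had no match at all. The G+C content of the 7 windows was 34.7% at His2Av, 30.7% at His3.3A, 47.5% at the promoter of His4r and 37.6% in the intron of put. At His3.3B it was 36.6% at the 3′ peak, 25.7% at the internal peak and 34.7% at the 5′ end. The median was 38.6% for IDR windows and 42.6% for flanks.

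The genes most like each member in replicate ranks, out of 4156 genes whose leading promoter peak was nearest to their own TSS in every replicate, were found by the largest log2 difference in rank over the 3 replicates. For His2Av they were ball, which has the same peak (0.00), and kibra (0.04). For His3.3A they were CG13041 (0.11) and Sec24AB (0.12), for His3.3B Ak3 (0.04) and Oscillin (0.06). For His4r they were PGAP5 (0.07) and wapl (0.12), which encodes a cohesin release factor. Close neighbours are found for any gene when so many are compared over 3 ranks, and the likeness is a description.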

How the data were processed

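The authors called peaks for the 3 replicates singly and for their pool, each against 1 control file, and an IDR list held the pooled peaks that passed their threshold, per the deposited text descriptions. The control library was not analysed here. Aligner, caller and IDR threshold: not given in the sources used here. Read depth is unknown. The score is the authors' deposited value and was used only for ranking. The −log10 q value that the authors deposited has a ceiling shared by all 9202 IDR peaks and was not used to rank. The IDR list equals the 9202 highest-scoring pooled peaks, so it and the replicates are not independent.

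Gene models were from Ensembl release 115 and sequence from the RefSeq release 6 genome. The 4 members have the same coordinates in both annotations. A gene was bound when a summit lay within 500 bp of any TSS. The members, gene lists and motifs were chosen with earlier results of these data known. Listed symbols were matched by name, or by synonym (DLP as Daxx, Mst35Ba as ProtA, Mst35Bb as ProtB). Genes named are the members, genes nearest to or sharing their summits, and up to 3 bound genes a list by score. Other listed genes that bear on a count, and genes nearest to the listed genes' summits, are named too. So are genes just outside the 2 kb limit and the 2 genes most like each member in rank. No test was made, since there was 1 group and the members were chosen on these calls. Counting steps were tested on simulated data. Python 3.11.15 with pandas 2.3.3, numpy 2.4.6 and Biopython 1.88 was used.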

Additional observations from a re-analysis of the deposited data

How the results depend on the processing

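With a promoter of 250 or 1000 bp, the pooled list, or overlap of the peak by 1 bp, all 4 members stayed bound. The 4601 highest-scoring IDR peaks kept 1 (His2Av), the nearest TSS only kept 2 (His3.3A, His3.3B), and all 3 shortened replicate lists together, an alternative chosen after seeing the data, kept 2 (His2Av, His3.3B). Requiring a peak in both remaining shortened lists when a replicate was left out gave 2 to 3 members, with 2 without replicate 3. Of the 43 listed genes 7 were bound with those 4601 peaks, 12 by nearest TSS, 29 in the full list of replicate 1 and 11 in all 3 shortened lists. The share of all protein-coding genes bound was 29.6% at 250 bp, 37.9% at 1000 bp, 48.1% in the pooled list, 20.0% with the 4601 peaks, 27.1% by nearest TSS, 36.0% by overlap, 36.2% in the shortened list of replicate 3, 49.9%, 47.7% and 51.2% in the full lists of replicates 1, 2 and 3, 27.3% in all 3 shortened lists, and 28.7% to 30.3% with a replicate left out. Array genes bound were 0 in all 16 alternatives. With a replicate left out, mean ranks ranged from 4169 to 4789 for His2Av, 5981 to 8557 for His3.3A, 5862 to 6848 for His3.3B and 6063 to 8603 for His4r, a range that 3 values keep within 1 SD by construction. Following the leading IDR peak through every replicate, an alternative chosen after seeing the data, gave His3.3B a mean rank of 7357 instead of 6399 and left the others as they were. With an extension of 5 kb His2Av had 2 IDR summits and His3.3A 3, and with 1 kb His4r had 1. Motif matches at the 7 summits rose from 9 to 18 with windows of 100 bp to either side in place of 50. The planned ranking by columns 5 or 8 of the lists was not run, since both are constant. The −log10 q value varies in the pooled and replicate lists but is tied over the IDR peaks. No paired analysis was possible because there is 1 group.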
